A study of Mus musculus with 4 samples.

Results

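Expression of 8 genes that peripheral tissues use and that thymic epithelial cells (TECs) express promiscuously, Calca, Calcb, Pomc, Gal, Ttr, Ins2, Sst and Pcp4, was described in droplet-based scRNA-seq data. They were picked by name from the 23568 genes kept in the series, with their levels in these libraries known, so the levels below are a description. C57BL/6 mice aged 6 weeks were of 2 genotypes, wild type (WT) or Cd40-deficient, and of 2 treatments. WT-Control and Cd40-/- Control mice had received control IgG, and WT-RANKL-Ab and Cd40-/- RANKL-Ab mice a neutralizing antibody to RANKL, 2 weeks before the thymi were taken. TECs were isolated as EPCAM+ CD45- cells without erythroid markers, and each condition is 1 library of 3 pooled mice. There is thus no replicate of any condition, no test between conditions was possible, and every interval is a 95% interval of counting error only.

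The mTECs that express Aire, a regulator that opens transcription of genes otherwise confined to other organs, display these products to developing T cells so that self-reactive clones are removed or diverted. RANK and CD40, receptors of the TNF receptor family, signal through NF-kB and support the maturation of these mTECs. Calca encodes calcitonin of thyroid C cells and, by alternative splicing, the neuropeptide CGRP, and Calcb encodes the second CGRP. Pomc gives ACTH and the melanocortins of the pituitary, Gal the neuropeptide galanin, Ins2 insulin of pancreatic beta cells, and Sst somatostatin, which restrains hormone secretion. The remaining pair are not hormone precursors. Ttr carries thyroid hormone and retinol-binding protein in plasma, and Pcp4 is a small calmodulin-binding protein of Purkinje cells.

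The 250 bases before the RefSeq gene start (GRCm38.p6, strand of the gene) are shown for 4 of the 5 genes with an entry. They let the reader compare promoters of genes that were lower in both antibody libraries than in both control libraries. Capitals mark TGACG, the core of the cAMP response element, and TATAAA, the TATA box, each searched on both strands. The windows are chr7:114636358-114636607 (minus strand) for Calca, chr12:3954695-3954944 (plus strand) for Pomc, chr19:3414545-3414794 (minus strand) for Gal and chr16:23890845-23891094 (minus strand) for Sst.
Calca: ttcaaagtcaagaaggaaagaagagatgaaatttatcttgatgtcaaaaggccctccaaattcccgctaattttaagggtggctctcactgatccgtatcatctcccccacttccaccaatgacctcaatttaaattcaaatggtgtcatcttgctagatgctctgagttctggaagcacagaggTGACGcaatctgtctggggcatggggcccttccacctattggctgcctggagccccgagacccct
Pomc: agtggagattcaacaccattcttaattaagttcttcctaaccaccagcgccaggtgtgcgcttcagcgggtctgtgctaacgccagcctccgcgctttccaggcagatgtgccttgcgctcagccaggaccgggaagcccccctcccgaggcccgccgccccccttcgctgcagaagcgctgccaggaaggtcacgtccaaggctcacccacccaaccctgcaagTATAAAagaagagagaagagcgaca
Gal: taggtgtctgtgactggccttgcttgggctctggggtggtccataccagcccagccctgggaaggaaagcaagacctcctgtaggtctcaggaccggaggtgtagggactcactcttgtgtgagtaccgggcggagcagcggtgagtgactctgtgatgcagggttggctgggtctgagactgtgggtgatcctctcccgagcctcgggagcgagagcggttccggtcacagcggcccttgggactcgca
Sst: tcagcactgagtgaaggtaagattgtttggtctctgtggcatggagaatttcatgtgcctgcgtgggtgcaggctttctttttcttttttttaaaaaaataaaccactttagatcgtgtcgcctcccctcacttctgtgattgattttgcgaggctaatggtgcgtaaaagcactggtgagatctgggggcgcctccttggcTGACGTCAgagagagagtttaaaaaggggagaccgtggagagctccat
TGACG began 65 bases before the start of Calca, and it lay on both strands in Sst, 48 and 45 bases before the start, where the copies overlap in 1 palindrome. TATAAA began 25 bases before the start of Pomc. Gal and Pcp4 held neither motif in this window. TGACG was found in 17.8% and TATAAA in 12.4% of 32851 promoters of this length. Neither motif was thus in all 4 of the genes shown, while TGACG was in both Calca and Sst. Any part of these motifs in the levels below was not tested.

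The genes lie on 5 chromosomes (GENCODE M21 on GRCm38). Calca (ENSMUSG00000030669) spans 114631478 to 114636357 of chromosome 7 on the minus strand, and Calcb (ENSMUSG00000030666) 114718643 to 114723365 on the plus strand, 82285 bases apart. Ins2 (ENSMUSG00000000215) lies farther along the same chromosome, on the minus strand, in a gene model of 64726 bases with 9 transcripts. Sst (ENSMUSG00000004366) and Pcp4 (ENSMUSG00000090223) are on chromosome 16, Gal (ENSMUSG00000024907) on 19, Pomc (ENSMUSG00000020660) on 12 and Ttr (ENSMUSG00000061808) on 18. Calca has 7 transcripts, and the counts, made per gene, do not separate calcitonin from CGRP. Pcp4 overlaps Igsf5 on the same strand, and how reads of the shared part were counted was not checked.

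After filtering, the WT-Control library kept 10218 cells and 95271992 UMIs, the WT-RANKL-Ab library 7164 cells and 48640152 UMIs, the Cd40-/- Control library 8591 cells and 66291681 UMIs, and the Cd40-/- RANKL-Ab library 2082 cells and 19153317 UMIs. Where 4 values stand together below, they follow this order. Levels are given as UMIs per 1000000 UMIs (CPM), 1 UMI being 1 captured transcript end, so that they do not depend on gene length. Cd40 itself was at 110.0, 28.8, 5.75 and 4.75 CPM. Both Cd40-/- libraries were thus lowest, although 3′ counts do not show whether a remaining transcript is functional. The pair of Cd40-/- libraries shared 205 cell barcodes after filtering, which is 9.85% of the Cd40-/- RANKL-Ab cells. These held a median of 24072 UMIs there against 723 in Cd40-/- Control. Levels with each shared barcode kept only in its deeper library are given below. Summed over markers fixed for other cell types, 7 T cell genes were at 73, 368.5, 410.0 and 817.7 CPM, 4 myeloid genes at 471.8, 90.4, 387.0 and 6.47 CPM, and 3 erythroid genes at 181.2, 3.06, 55.4 and 0.627 CPM. The myeloid and erythroid sums had the same order of libraries as the 8 genes. Their part in the levels below was not tested.

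In WT-Control, Calcb was the most widely detected of the 8 genes. It had at least 1 UMI in 41.4% of cells, against 16.1% for Calca, 12.7% for Pcp4, 9.02% for Pomc and 7.06% for Gal. Ins2 (3.75%), Ttr (3.2%) and Sst (2.2%) were found in few cells. The UMIs were held by a minority of these cells, which the plot of the share of UMIs against the number of cells shows. The 1% of cells with most UMIs of a gene held 17.2% of all Calcb UMIs, 49.3% of Calca, 51% of Pcp4, 73.9% of Gal, 84.8% of Pomc, 86% of Ins2, 93.4% of Ttr and 96% of Sst. Single cells reached 831 UMIs for Ttr and 517 for Pomc, while the median positive cell held 1 UMI of either. Calcb UMIs were thus the most spread over cells and those of Sst and Ttr the least. The part of free RNA in this was not tested, and Calcb had a UMI in 21.8% of 55 T cell-like cells (median 2489 UMIs) and 21.9% of 32 Nurse-like cells (median 25571 UMIs) of WT-Control, where the median over all cells was 7621 UMIs.

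**Figure D1:**
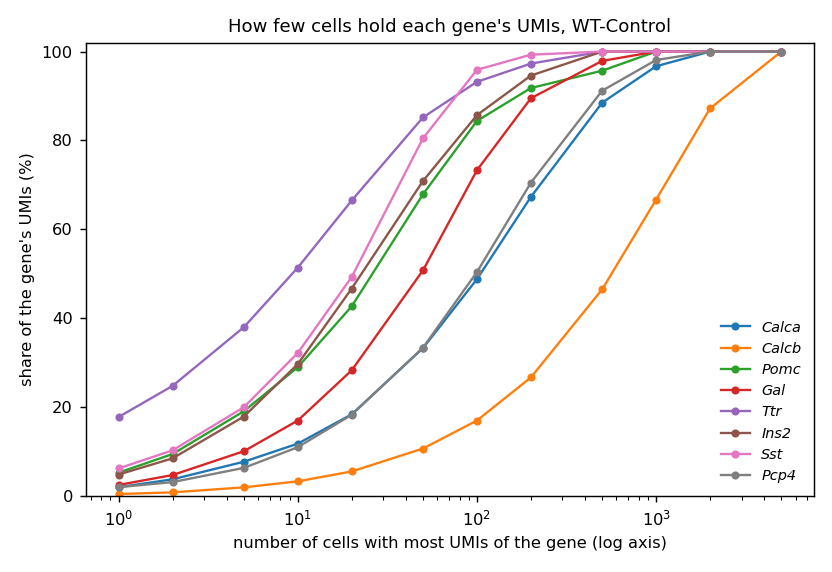
Share of each gene's UMIs in WT-Control (y axis, %) held by the cells with most UMIs of that gene (x axis, number of cells, log axis), 1 line per gene. The 100 leading cells held 95.9% of Sst and 93.2% of Ttr UMIs but 17% of Calcb UMIs.

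Cells were gated into 14 classes by markers that include none of the 8 genes, and 2852 of the 10218 WT-Control cells met no gate and stayed unassigned. The Aire+ mTEC-like class (1726 cells, 16.9% of WT-Control), gated on Aire, Fezf2, Cd80 and Cd86, had the highest level of Calca (534.6 CPM, 524.3 to 545.2), Calcb (749.5 CPM) and Gal (264.8 CPM). This class held between 39.2% (Sst) and 51.6% (Calca) of the UMIs of each gene but Ttr, of which it held 10.4%. Unassigned cells held between 21.9% (Calcb) and 33.6% (Pcp4) of the UMIs, and for Calcb another 15.6% was in Hes6 Tmem158 cells and 7.53% in Cycling-like cells. In Cd40-/- Control, Calcb was again highest in Aire+ mTEC-like cells, but Calca (749.6 against 415.5 CPM) and Gal (564.7 against 228.6 CPM) were higher in the 81 Enterohepatic-like cells, from 18 and 7 positive cells. Assigned by likelihood instead of gates, with no cell left over, 6 of the 8 genes, Pomc among them, were highest in Aire+ mTEC-like cells of WT-Control. Of these, Gal (271.9 against 270.5 CPM) and Pcp4 (432.9 against 431.5 CPM) were nearly level with Enterohepatic-like cells. In the Ccl21a-high mTEC-like class (2070 cells), the immature mTECs, each gene was between 1.23 CPM (Sst) and 21.8 CPM (Calcb).

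Ttr followed another class. It reached 1105.2 CPM (1058.6 to 1153.4) in the 168 Enterohepatic-like cells of WT-Control, where 47 cells (28%) were positive and which held 45.3% of all Ttr UMIs. Ttr is a product of the liver, and these cells were gated on Apoa4, Apoa1 and other genes of gut and liver. The 81 cells of this class in Cd40-/- Control were at 1661.0 CPM, with 29.6% of them positive. Ins2 (154.8 CPM), Pcp4 (456.9 CPM) and Sst (119.2 CPM) were also highest there in WT-Control, but the Sst level rested on 8 positive cells, 1 of which held 148 of the 228 UMIs. The class had 1.44 CPM of Sst in Cd40-/- Control.

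Pomc was highest in the Keratinocyte-like class of WT-Control (393.5 CPM, 220 cells), through 29 positive cells. This rested on the gates: it was at 294.5 CPM in the 179 cells of stricter gates, and by likelihood at 35.9 CPM, below the 304.1 CPM of Aire+ mTEC-like cells. Pomc peptides act on pigment cells in skin. The class had 54.5 CPM of Pomc in Cd40-/- Control, from 10 positive cells of 192. Neuroendocrine-like cells (77 in WT-Control), gated on Chga, Chgb, Scg2 and other neuroendocrine genes, were highest for none of the 8. They had 189.7 CPM of Calca, 138.4 of Gal, 43.5 of Sst, 15.6 of Pomc and 4.67 of Ins2. Levels in such small classes moved with single cells: Ins2 stood at 193.3 CPM in the 52 Neuroendocrine-like cells of Cd40-/- Control because 1 cell held 68 of 73 UMIs.

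**Figure D2:**
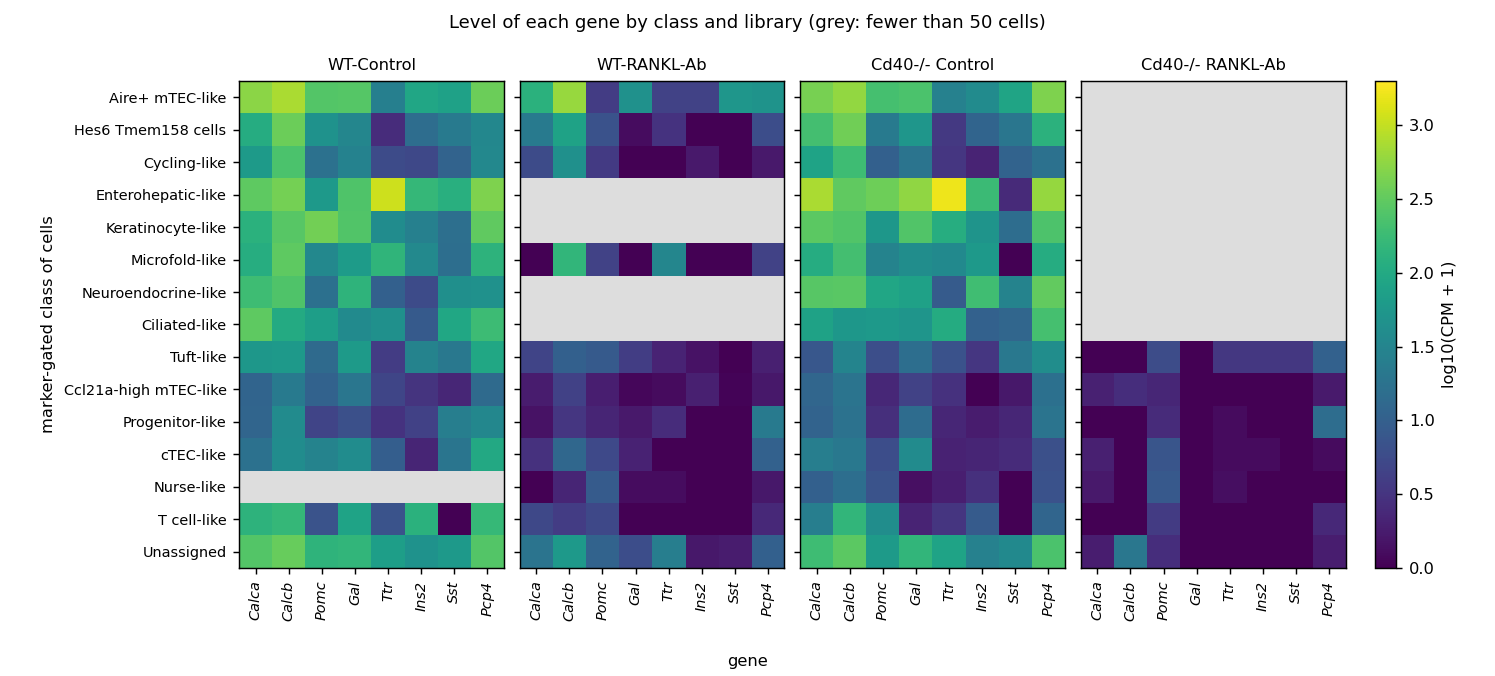
Level of the 8 genes (columns) in 14 marker-gated classes and unassigned cells (rows) of the 4 libraries, as log10(CPM + 1), with classes under 50 cells in grey. Aire+ mTEC-like cells are high for Calcb in the 3 libraries that hold them, and Ttr is highest in Enterohepatic-like cells of both control libraries. The antibody libraries have fewer than 50 Enterohepatic-like cells. The Cd40-/- RANKL-Ab library has no class from Aire+ mTEC-like to Ciliated-like with 50 cells.

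To ask what loss of RANKL did to these genes, WT-RANKL-Ab was set against WT-Control. Calca was at 206.3 CPM in WT-Control and 9.33 in WT-RANKL-Ab, 22.1-fold lower. Calcb went from 331.7 to 39.8 CPM, 8.33-fold lower, the smallest difference of the 8. Gal went from 111.3 to 2.67 CPM (41.7-fold lower) and Ins2 from 36.9 to 0.617 CPM (59.9-fold lower), the largest pair. Pomc was at 102.7 and 4.5 CPM, Sst at 38.6 and 1.69, Pcp4 at 166.8 and 7.01 and Ttr at 49 and 5.06. All 8 genes were over 2-fold lower (log2 ratios with 1 CPM added, -4.93 to -3.03, median -4.28), where 13.6% of 20408 genes with at least 20 UMIs were, and the median of all genes was -0.01. None was over 2-fold higher, beside 4.45% of genes. With 1 CPM added, a gene under 1 CPM in WT-Control cannot be over 2-fold lower, even if absent from WT-RANKL-Ab. Such genes are among the 20408, while the 8 were at 36.9 to 331.7 CPM in WT-Control. The share among genes of like level was not taken. Aire, at 332.6 and 34.5 CPM, had a log2 ratio of -3.23. In sums over a library, fewer cells of a type and less RNA per cell cannot be told apart, which the values per class below address in part.

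In Cd40-/- Control the 8 genes stood close to WT-Control by comparison. Pomc was at 49.1 CPM, 2.09-fold lower, and Ins2 at 17.3 CPM, 2.14-fold lower. These 2 of 8 passed the 2-fold limit, beside 1.11% of 21099 genes, and none was over 2-fold higher, beside 2.53%. The other 6 genes differed less, with Sst at 22.2 CPM (log2 ratio -0.77), Calcb at 223.3 (-0.57), Calca at 144.7 (-0.51), Gal at 84.1 (-0.40), Pcp4 at 140.0 (-0.25) and Ttr at 43.9 (-0.16). All 8 values were below WT-Control, but Ttr turned to 0.61 when each cell was weighted equally. Scaling by TMM factors instead of total UMIs shifted each of these 8 log2 ratios by -0.18, and none of the 8 passed the limit once T cell-like, Nurse-like and other cells with non-epithelial markers were left out.

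Cd40-/- RANKL-Ab had the lowest level of every gene. Gal had 0 UMIs in 2082 cells, which by the limit of 3 counts allows up to 0.144% of cells with a UMI, though not a share of cells expressing the gene, and a level of 0.157 CPM. Against this limit Gal was at least 710.9-fold lower than in WT-Control and at least 537.1-fold lower than in Cd40-/- Control, and the exact 95% upper bound of its level was 0.193 CPM. Sst had 1 UMI, Ins2 2 and Ttr 4. For Sst the log2 ratio to WT-Control, without an added CPM, was -9.53 with a counting interval of -14.83 to -7.05, and for Ins2 it was -8.47 (-11.51 to -6.61). Calca had 19 UMIs (0.992 CPM), 207.9-fold below WT-Control, Calcb 82 (4.28 CPM), 77.5-fold below, Pcp4 65 (3.39 CPM), 49.2-fold below, and Pomc 69 (3.6 CPM), 28.5-fold below. All 8 genes were over 2-fold lower than in WT-Control, beside 18.9% of 20202 genes, and than in Cd40-/- Control, beside 17.8% of 19283. None was over 2-fold higher in either comparison, beside 9.15% and 3.07% of genes. Each gene was thus highest in WT-Control, next in Cd40-/- Control, then in WT-RANKL-Ab and lowest in the Cd40-/- antibody library. For 7 genes no neighbouring intervals met. For Pomc the antibody libraries, with 3.93 to 5.14 CPM in WT and 2.8 to 4.56 CPM in Cd40-/-, overlapped.

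**Figure D3:**
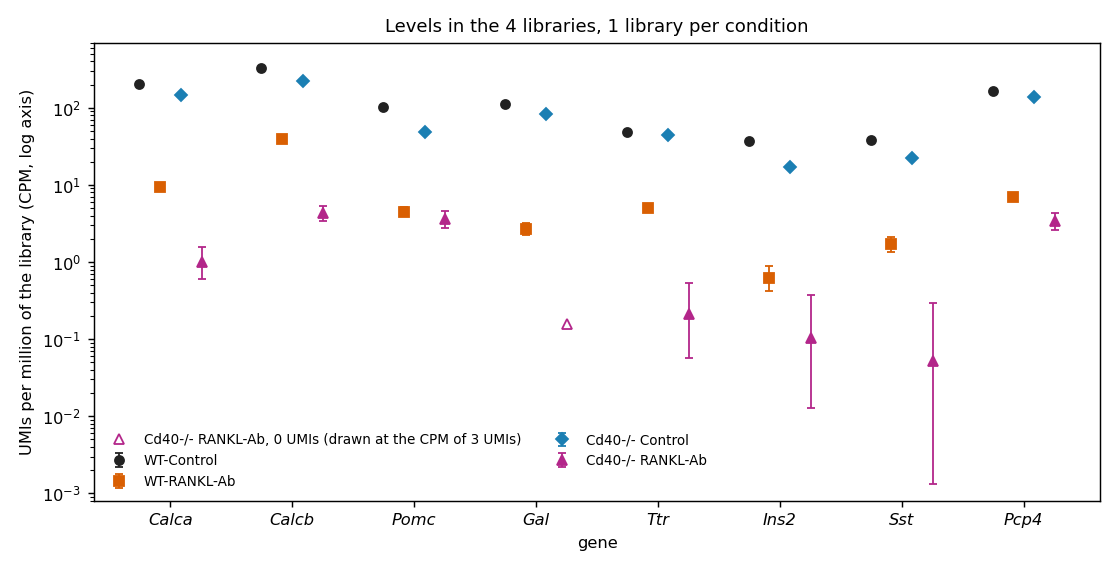
Level of the 8 genes (x axis) in the 4 libraries (CPM, log axis), with exact 95% Poisson intervals of counting error as bars and 1 library per condition. The antibody libraries lie below both control libraries for each gene, and the open triangle marks Gal in Cd40-/- RANKL-Ab, with 0 UMIs, drawn at the level of 3 UMIs.

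The share of Aire+ mTEC-like cells itself differed between the libraries, with 16.9%, 2.53%, 9.49% and 0.048% of cells, or 1726, 181, 815 and 1. If each class of WT-RANKL-Ab had kept the WT-Control level of its class, the library log2 ratios would have been -1.44 (Ttr) to -0.88 (Sst), against -4.93 to -3.03 as measured. With cells assigned by likelihood the median of these expected ratios was -2.05. The expected values thus depended on the assignment, and 29.9% of unassigned cells of WT-Control but 18.7% of those of WT-RANKL-Ab were Aire+ mTEC-like by likelihood. How much of the difference lay in shares and how much in levels within classes was therefore not settled. For Cd40-/- Control the expected ratios were -0.41 to -0.25, close to those measured for Calca (-0.39 expected, -0.51 measured), Gal (-0.34 and -0.40) and Pcp4 (-0.26 and -0.25). Pomc (-0.34 expected, -1.05 measured), Ins2 (-0.37 and -1.05), Sst (-0.25 and -0.77) and Calcb (-0.33 and -0.57) were below the expected value, and Ttr (-0.41 and -0.16) was above it.

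Within Aire+ mTEC-like cells, the 8 genes did not move alike in WT-RANKL-Ab. Calcb was at 749.5 CPM in WT-Control, 614.3 with the antibody and 589.8 in Cd40-/- Control, a log2 ratio of -0.29 (counting interval -0.39 to -0.19) for WT-RANKL-Ab. Its share of positive cells was 77.8%, 66.3% and 70.8%, and the median positive cell held 6, 2 and 4 UMIs at median class depths of 10395, 7197 and 8241 UMIs per cell. The summed level with the antibody was thus nearer to WT-Control than the median positive cell was. Sst was at 76, 53.1 and 82.9 CPM, but its 75 UMIs in WT-RANKL-Ab came from 5 cells and 62.7% of them from 1, without which the level was 19.8 CPM. Aire, on which the class was gated, was at 707.4, 476.1 and 761.0 CPM.

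The other 6 genes were over 2-fold lower in these cells of WT-RANKL-Ab, beside 21.1% of 16935 genes in this class, and none was over 2-fold higher, beside 3.43%. Pomc was at 256.8 CPM in WT-Control and 2.83 in WT-RANKL-Ab (log2 ratio -6.07), 4 UMIs in 4 of 181 cells against 283 positive cells of 1726. Ins2 was at 88.7 and 3.54 CPM (-4.30), Pcp4 at 360.6 and 48.9 (-2.86), Ttr at 25.5 and 3.54 (-2.55), Gal at 264.8 and 45.3 (-2.52) and Calca at 534.6 and 125.4 (-2.08). Gal rested on 4 positive cells, of which 1 held 29 of 64 UMIs. With the class assigned by likelihood (550 cells, median 1546.5 UMIs per cell against 9915 in WT-Control), the ratios were -3.00 for Pomc, -2.68 for Ins2 and -0.85 for Ttr, and -0.17 for Calcb. Calca and Calcb, the 2 CGRP genes, thus differed from each other in this class under each assignment.

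Calcb was also lower in Hes6 Tmem158 cells and Cycling-like cells of WT-RANKL-Ab. Both classes expressed Aire too, at 414.1 and 369.3 CPM over all libraries together, against 709.8 CPM in Aire+ mTEC-like cells. In Hes6 Tmem158 cells, named here by their marker genes, Calcb was at 364 CPM in WT-Control and 78.9 in WT-RANKL-Ab (log2 ratio -2.19). There 73.5% and 20.2% of cells were positive without thinning, at median depths of 12630 and 7475 UMIs per cell. In Cycling-like cells it was at 229.9 and 44 CPM (-2.36), with 70.9% and 14.9% positive at median depths of 17254 and 10008 UMIs per cell. These classes had 386.6 and 189.5 CPM of it in Cd40-/- Control. Calca was lower in Hes6 Tmem158 cells as well, at 111 and 21.4 CPM. With cells assigned by likelihood, the Calcb ratios of Hes6 Tmem158 and Cycling-like cells in WT-RANKL-Ab were -1.99 and -1.43. Calcb was not lower in Neuroendocrine-like cells by likelihood, at 97.5 CPM in WT-Control and 102.5 in WT-RANKL-Ab (0.07, counting interval -0.42 to 0.55).

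Between Cd40-/- Control and WT-Control, levels within Aire+ mTEC-like cells were nearer. Ins2 was at 37.7 against 88.7 CPM (log2 ratio -1.21) and was the 1 gene over 2-fold lower, beside 2.42% of 17836 genes, and none was over 2-fold higher, beside 2.78%. Calca (-0.36), Calcb (-0.35), Pomc (-0.29) and Gal (-0.21) were slightly lower, and Pcp4, at 457.2 against 360.6 CPM, was higher (0.34). Ttr (0.07) and Sst (0.12) had counting intervals that spanned 0, and both changed sign with other assignments of cells. In Hes6 Tmem158 cells Pcp4 was at 130.2 CPM in Cd40-/- Control against 32.9 in WT-Control, with 11.6% and 10.8% of cells positive, and 1 cell of Cd40-/- Control held 171 of its 937 UMIs.

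**Figure D4:**
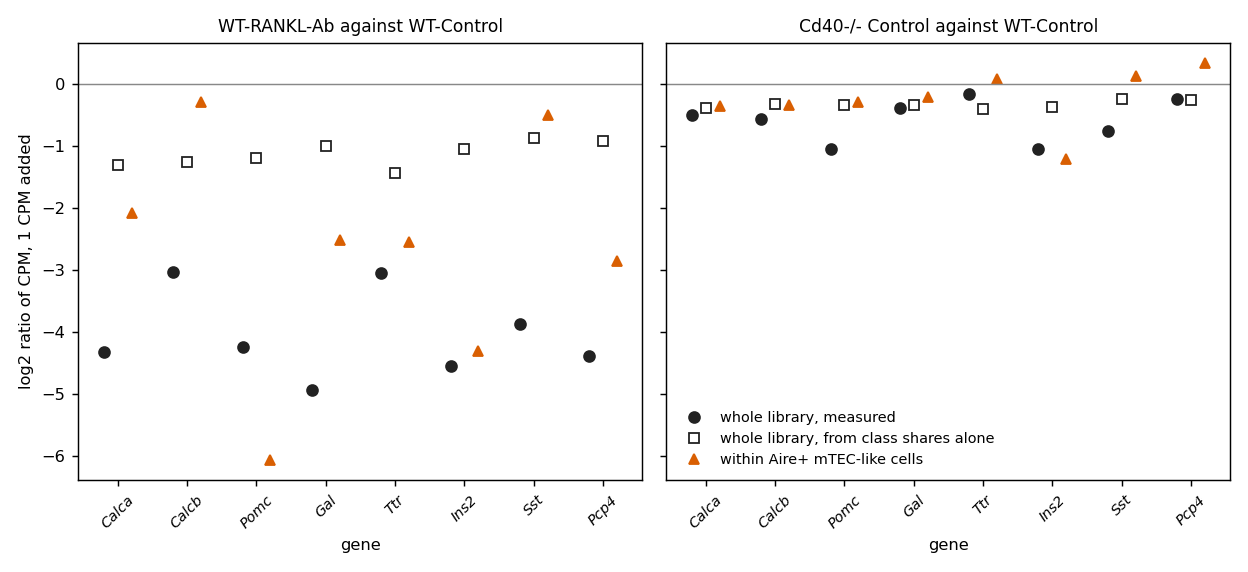
Log2 ratios of CPM to WT-Control (y axis, 1 CPM added) for the 8 genes (x axis) in WT-RANKL-Ab (left) and Cd40-/- Control (right): circles, whole library as measured; squares, expected from the shares of classes; triangles, within Aire+ mTEC-like cells. In WT-RANKL-Ab the triangles reach from -6.07 (Pomc) to -0.29 (Calcb), while the squares stay between -1.44 and -0.88.

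The few UMIs left in Cd40-/- RANKL-Ab were not spread like those of the other libraries. Of the 65 Pcp4 UMIs, 54 (83.1%) were in the Progenitor-like class (464 cells, gated on Dcn, Fmod, Fst, Igfbp4, Gas1 and Bgn, which the study's own gene list of a subset of its progenitors holds), from 26 cells with at most 5 UMIs each. Pcp4 was present in this class in all libraries, at 32.2, 21.8, 17.4 and 13.9 CPM, with 6.86%, 6.99%, 3.32% and 5.6% of cells positive. In WT-Control 39 of the 95 UMIs were in 1 cell. The levels of the Cd40-/- libraries differed by less than counting error with these gates (log2 ratio without an added CPM -0.33, -0.87 to 0.21). With stricter gates the direction turned, with 18 CPM in Cd40-/- RANKL-Ab and 8.92 CPM in Cd40-/- Control (1.02, 0.28 to 1.79, also without an added CPM). In Ccl21a-high mTEC-like cells Pcp4 was instead at 13, 0.641, 15.6 and 0.743 CPM, low in both antibody libraries. T cell-like cells of the antibody libraries, which should lack these genes, had a Pcp4 UMI in 0.493% of WT-RANKL-Ab cells and 0.559% of Cd40-/- RANKL-Ab cells at medians of 1462 and 1600 UMIs per cell, against medians of 5957.5 and 7607.5 in the Progenitor-like cells.

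For Pomc, 27 of the 69 UMIs in Cd40-/- RANKL-Ab were in cTEC-like cells and 22 in Nurse-like cells, which carry both cTEC and T cell markers, with at most 2 UMIs in any cell. In Nurse-like cells Pomc was at 5.51, 7.96, 5.89 and 7.23 CPM, levels whose counting intervals all overlapped. The WT-Control value came from 32 cells. Median depth in this class was 16574.5 to 27726 UMIs per cell. In cTEC-like cells Pomc was at 29.2, 4.35, 5.07 and 6.36 CPM, and in WT-Control 29 of its 50 UMIs were in 1 cell. Among T cell-like cells of the antibody libraries Pomc was at 4.23 and 2.77 CPM, from 3 UMIs and 2, with intervals that overlapped those of Nurse-like cells. Progenitor-like cells of Cd40-/- RANKL-Ab had 1.54 CPM (0.567 to 3.36), below the 7.23 CPM (4.53 to 10.9) of its Nurse-like cells.

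**Figure D5:**
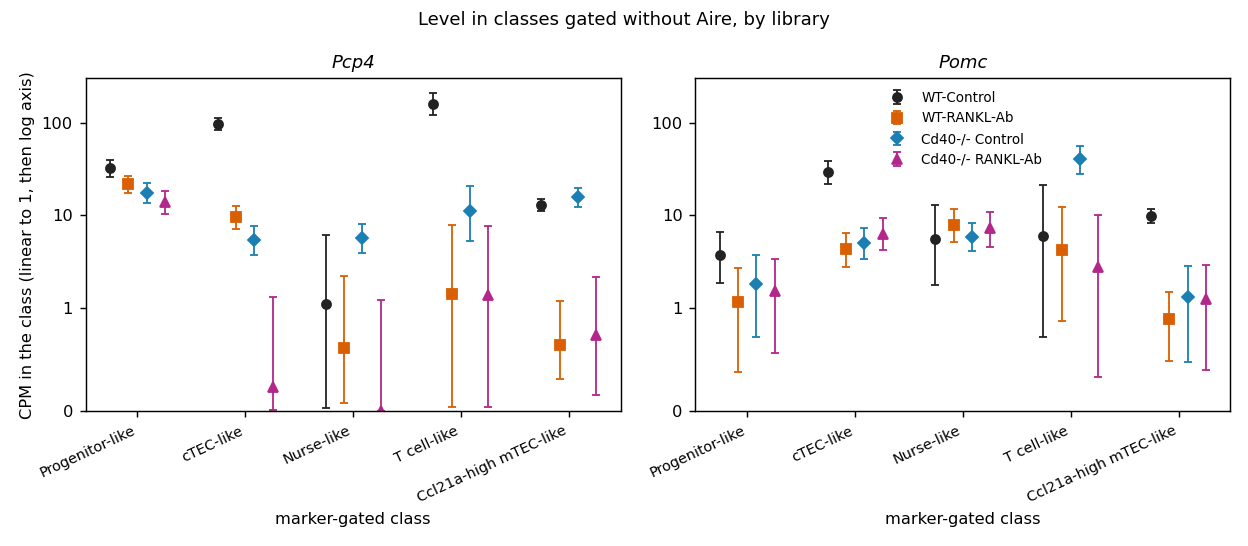
Level of Pcp4 (left) and Pomc (right) in 5 classes gated without Aire (x axis) in the 4 libraries (CPM, linear to 1 and then log axis; bars, exact 95% Poisson intervals of counting error). Pcp4 is between 13.9 and 32.2 CPM in Progenitor-like cells of each library, and Pomc between 5.51 and 7.96 CPM in Nurse-like cells.

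Calcb in Cd40-/- RANKL-Ab was held by 14 cells, 10 of which had 95.1% of its 82 UMIs. The only Aire+ mTEC-like cell of that library had 13 Calcb and 7 Calca UMIs. The barcodes shared between the Cd40-/- libraries held 26 of the 69 Pomc, 15 of the 82 Calcb and 9 of the 65 Pcp4 UMIs. With each barcode shared between any libraries kept only where it was deepest, Cd40-/- RANKL-Ab kept 2053 of its 2082 cells. Pomc was then at 3.63, Calcb at 4.31 and Pcp4 at 3.21 CPM, and Ins2 at 1 UMI. All 69 Pomc and 82 Calcb UMIs stayed in that library, so its levels without the shared cells are not given.

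To compare shares across depths, each cell was thinned to 1000 UMIs, which left out 570, 492, 806 and 74 shallower cells. At least 1 of the 8 genes was then found in 29.4%, 5.08%, 22.3% and 1.05% of cells. Among Aire+ mTEC-like cells, in the first 3 libraries, the share was 61.3%, 42.8% and 57.7% (89.3%, 75.1% and 85.4% without thinning). T cell-like cells of the last 3 libraries had 0.613%, 3.28% and 0.617%. In WT-Control the T cell-like class had 55 cells and 288 CPM of Aire, so it gave no clean background there. The class was at 65.8 CPM of Aire in Cd40-/- Control, so its 3.28% was no clean background either. In WT-RANKL-Ab and Cd40-/- RANKL-Ab the class was at 1.41 and 2.77 CPM of Aire. Cells with 2 or more of the genes made up 21%, 6.94% and 15.2% of Aire+ mTEC-like cells, and no thinned cell held more than 5.

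The genes were also taken in pairs, with no test of their association. In Aire+ mTEC-like cells of WT-Control, thinned to 1000 UMIs, Calcb was found in 45.1% of 273 cells with Calca and 36.7% of 1433 cells without it. The Cd40-/- Control cells gave 39.8% of 93 cells and 32.8% of 710. Pcp4 was found in 22.9% of 118 cells with Gal and 13.2% of 1588 without, and Ins2 in 1.47% of cells with Calca and 4.12% of those without. For Pomc with Calcb the shares were 36% and 38.2%, and for Gal with Calcb 38.1% and 38%. Aire itself was found in 52% of cells with Calca and 44.2% of those without. As counted, Calcb was found more often beside Calca in both control libraries, in 123 cells of WT-Control and 37 of Cd40-/- Control. Beside Gal it was as frequent as without it in WT-Control. In Cd40-/- Control Calcb was found in 27.3% of 55 cells with Gal, which is 15 cells, against 34.1% of 748 without. No interval was taken of these shares, so a direction in so few cells was not settled.

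Over the 47 sums of a class in a library with at least 50 cells, which share libraries and Aire+ cell content, Calcb had the pattern most like Aire. Its nearest of 7663 genes were Muc1 (Pearson r 0.977), Aire (0.964) and Fscn1 (0.959). Calca was nearest to Nts (0.95), the neurotensin precursor, Il13 (0.946) and Hal (0.938), and Pcp4 to S100a9 (0.933), Nts (0.929) and Gal (0.924). Gal was nearest to Gast (0.929), which encodes gastrin, to Fabp6 (0.925) and to Calca (0.925). Ttr was nearest to Slc39a4 (0.908), Vnn3 (0.90) and Rbp2 (0.879), the last a retinol-binding protein of the gut, and Ins2 to Saa2 (0.916), Gip (0.866) and Pcp4 (0.850). Pomc was near to Cyp1a2 (0.901) and Prss34 (0.888), and Sst to Gm43569 (0.862), Mt3 (0.819) and Sprr2i (0.811). Among the 8 genes themselves r ran from 0.44 (Ttr with Sst) to 0.92 (Calca with Gal). These values describe the sums and were given no p.

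A list of 77 other precursors of peptide hormones and neuropeptides was counted in the same way. In WT-RANKL-Ab, 55 of the 72 with at least 20 UMIs were over 2-fold lower, beside 13.6% of all genes, and 1 higher, beside 4.45% (median -2.10). In Cd40-/- Control 8 of 72 were lower, beside 1.11%, and 2 higher, beside 2.53% (median -0.53). In Cd40-/- RANKL-Ab 57 of 71 were lower than in WT-Control, beside 18.9%, and 1 higher, beside 9.15% (median -2.74). Pyy, peptide YY, was at 168.6, 7.42, 96.9 and 0.0522 CPM, and Nts at 138.7, 3.7, 101.0 and 0.104. Of the 3 genes of the list with most UMIs, Adm, adrenomedullin, was at 208.1, 298.4, 186.0 and 199.1 CPM, Igf1 at 162.8, 58, 145.8 and 29.9 and Iapp, amylin, at 177.5, 66.9, 115.5 and 3.86. The antibody therefore did not go with lower levels of every precursor. Pth, parathyroid hormone, was at 19, 0.781, 142.6 and 0.0522 CPM. At least 2 of the parathyroid markers Pth, Gcm2 and Casr were carried by 4, 0, 7 and 0 cells.

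Of 14 genes for secretory granules and prohormone processing, 4 were over 2-fold lower in WT-RANKL-Ab (13.6% of all genes) and none in Cd40-/- Control (1.11%). In the Cd40-/- antibody library 8 were over 2-fold lower than in WT-Control (18.9%). None was over 2-fold higher in these comparisons, beside 4.45%, 2.53% and 9.15% of all genes. Pam, which amidates peptides, was at 80.6, 105.8, 105.3 and 107.1 CPM, Scg5 at 67.5, 66.8, 43.2 and 20, and Chga at 28.8, 7.63, 41.2 and 1.93. The prohormone convertase Pcsk1, which cuts the products of Pomc and Ins2, was at 1.13, 0.761, 0.965 and 0.209 CPM. Pcsk2, another convertase of the list, was at 4.71, 1.23, 3.41 and 0 CPM. In WT-RANKL-Ab their log2 ratios were -0.28 for Pcsk1 and -1.35 for Pcsk2. Of 20 genes for receptors of these peptides, 14 had at least 20 UMIs in WT-Control and WT-RANKL-Ab together, of which 2 were lower, beside 13.6% of all genes, and 1 higher, beside 4.45%. Igf1r was at 36, 85.7, 65.3 and 119.4 CPM, Calcrl, the CGRP and adrenomedullin receptor, at 19.6, 22.3, 30.9 and 21.6 CPM, and its partner Ramp1 at 12.1, 21.8, 25.2 and 50.4 CPM. Of Aire and 9 genes that act with it or in mTEC gene regulation, 2 of 10 were over 2-fold lower in WT-RANKL-Ab, beside 13.6% of all genes. These were Aire and Sirt1 (75, 12.5, 69.5 and 12.4 CPM), a deacetylase that acts on Aire. Fezf2 was at 459.9, 234.3, 299.3 and 90.5 CPM and Irf8 at 222.0, 200.9, 216.7 and 143.0. In Aire+ mTEC-like cells, 42 of 67 other precursors were over 2-fold lower in WT-RANKL-Ab, beside 21.1% of all genes, and 3 higher, beside 3.43%. Their median was -1.76 against -2.53 for the 8 genes and -0.11 for all genes.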

How the data were processed

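Droplet-based scRNA-seq of TECs gave 1 library per condition. Trimming (Fastp), mapping to mm10 and UMI counting (Cell Ranger, 5.0.1 in the file headers and 5.1 in the submitters' processing notes) were done by the authors. The deposited counts are whole UMIs of called cells, without normalization. Genes had to be found in more than 5 cells, and cells to have 200 or more genes and no more than 25% mitochondrial UMIs. Doublets were not removed, and cells with cTEC and T cell markers formed the Nurse-like class.

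Cells were gated on marker genes per 10000 UMIs: at least 2 detected markers for lists of 4 (3 for longer lists), a score of at least 0.5 and a lead of 0.2 over the next class. Of 28055 cells, 3679 lay within 0.1 of a limit. Of the gated cells, 79.6% had the same class when assigned by likelihood. UMIs were summed per class and library and scaled to 1000000 UMIs (CPM). Intervals are exact: Poisson for CPM, Clopper-Pearson for shares and conditional binomial for ratios. A count of 0 was given a limit of 3 counts per library. Log2 ratios had 1 CPM added unless stated, and the count past 2-fold took genes whose UMIs in the compared pair summed to 20 or more. In every comparison, genes under 1 CPM in the library compared against could thus not count as over 2-fold lower. This lowers the shares of all genes set beside the counts. Similarity was Pearson's r of log2(CPM + 10) over genes with at least 200 UMIs and 50 CPM in 1 sum. Named genes were the 8, the 3 most similar to each and the 3 with most UMIs of each list, of which 1 is not reported here. Pyy, Nts, Pth, Pcsk1, Pcsk2 and Sirt1 were chosen after their values were seen. The members, lists and gates were chosen with earlier results of these data known. The ratio and interval functions were tested on simulated data. Python 3.11.15, numpy 2.4.6, scipy 1.17.1 and pandas 2.3.3 were used, with edgeR 4.0.16 under R 4.3.3 for TMM factors alone. Promoters are from RefSeq on GRCm38.p6, with an entry for 5 of the 8 genes. Alternatives were other scalings, filters, gates and thinning depths. Another was removal of all but the deepest cell of each barcode shared between libraries, chosen after seeing the data.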

Additional observations from a re-analysis of the deposited data

How the results depend on the processing

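No paired analysis was possible because each condition is 1 library and the labels give no replicate numbers. Among the summary values, 152 stayed within their range of error or within 1.5 times and 26 moved; among values of single genes, 391 stayed, 165 moved and 4 reversed. All library ratios of the antibody libraries kept their direction under each alternative run. The causes of the changes below were not tested, unless the setting itself leaves out cells or adds CPM. The median log2 ratio in WT-RANKL-Ab was -3.34 with each cell weighted equally, -4.76 without the 10 cells with most UMIs of a gene, -4.52 in cells with at least 2000 UMIs and -2.87 with 10 CPM added, which also gave -3.33 for Cd40-/- RANKL-Ab against WT-Control and -2.82 against Cd40-/- Control. In Cd40-/- Control the median was -0.72 with TMM factors, -0.64 with cells weighted equally, -0.41 in TECs only and -0.59 without the 10 leading cells, and the count of genes over 2-fold lower was 0 with cells weighted equally, 0 in TECs only, 0 with 10 CPM added and 1 without the 1% of cells with most UMIs. Ttr reversed to 0.61 there with cells weighted equally, and within Aire+ mTEC-like cells of Cd40-/- Control Sst reversed to -0.32 with stricter gates and to -0.39 by likelihood, and Ttr to -0.35 by likelihood. Medians expected from class shares were -0.91 (WT-RANKL-Ab) and -1.25 (Cd40-/- RANKL-Ab) with stricter gates, and -2.05, -3.59 and, for Cd40-/- Control, -0.41 by likelihood. Likelihood also put 6 genes highest in Aire+ mTEC-like cells, Gal and Pcp4 only narrowly. The share of these cells with any of the 8 genes in WT-Control, WT-RANKL-Ab and Cd40-/- Control was 74.8%, 52% and 70.3% at 2000 UMIs and 89.3%, 75.1% and 85.4% without thinning. Depth limits the Cd40-/- RANKL-Ab library most, where 1 UMI is 0.0522 CPM.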
